A study of Mus musculus with 6 samples.

Results

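Semaphorins, plexins, neuropilins, ephrins and Eph receptors, the main families of contact and diffusible guidance signals, were examined on 6 Affymetrix mouse arrays of differentiating C2C12 myoblasts. Members were taken by gene symbol from the platform annotation, and the rule used no measured value, although the families were picked for study with earlier results of these data known. Of 18192 genes measured by a probe set naming them alone, 52 were members: 20 semaphorins, 9 plexins, 2 neuropilins, 8 ephrins and 13 Eph receptors, with 123 probe sets between them. Cells of the tested group carried a short hairpin RNA (shRNA) against PRDM2 (3 arrays, called knockdown below), and cells of the other group an shRNA against GFP (3 arrays, called control). PRDM2 is a histone H3 lysine 9 methyltransferase, and C2C12 is a mouse myoblast line that fuses into myotubes when serum is lowered. Serum had been lowered to 2% horse serum for 28 hours in all 6 cultures. The labels call the arrays of a group biological replicates but do not say whether the cells were pooled or clonal, or whether the cultures were transfected separately, so p-values measure the spread between these arrays.

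Semaphorins are secreted or membrane-bound ligands. Those of class 3 are secreted and mostly bind a neuropilin that pairs with a plexin, while the membrane-bound classes bind plexins directly. Plexins act on small GTPases, and the usual outcome is collapse or turning of the cell's leading edge. Ephrins are ligands held on the cell surface, the A type by a lipid anchor and the B type by a transmembrane segment, and bind Eph receptor tyrosine kinases on neighbouring cells, with signals running into both cells. In skeletal muscle both systems are known for steering motor axons, and ephrins also repel satellite cells in culture.

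Values are log2(intensity + 16) after quantile normalization, with a floor of 4, and a gene is read by its brightest probe set. Since every probe set has its own efficiency, levels are compared between arrays and not between genes. A gene whose mean over the 6 arrays lay under that of the median gene, 5.36, is called dim, which holds for 18 of the 52 members. It holds for 9096 of 18192 genes, so background shares below are not matched to the members for brightness. Array medians lay between 10.7 and 11.4 intensity units. The 10 myoblast and myotube markers, such as Myog and Myh3, read between 9.33 and 11.99 on every array. Prdm2, against which the shRNA was directed, read 6.67, 6.32 and 6.02 on the arrays labelled knockdown, against 6.19, 6.42 and 5.94 on the control arrays. It did not separate the groups, and all directions here are taken from the labels. Control replicate 2 lay closest to knockdown replicate 2. Over the 52 members its median absolute log2 difference was 0.067 from knockdown replicate 2, the smallest of the 15 pairs of arrays, but 0.22 from control replicate 1 and 0.25 from control replicate 3, which were themselves 0.23 apart. Over all genes it was 0.064 from knockdown replicate 2, 0.18 from control replicate 1 and 0.16 from control replicate 3, and the last pair were 0.12 apart. Whether array labels or RNA had been exchanged was not tested; an exchange would change what each fold change here means, with or without that array. Results are therefore given with all 6 arrays and without control replicate 2. The second comparison was singled out after the data had been seen, and its p-values are optimistic.

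With all 6 arrays, none of the 52 members passed an adjusted p of 0.05 (limma, Benjamini-Hochberg over all genes), and the background was 0% of 18192 genes. Every member had an adjusted p of 1.00. At an unadjusted p under 0.05, 3 members were left, Plxnd1, Ephb4 and Efnb2, all on the lower side (5.77% of members, against 3.3% of all genes in either direction and 2.11% on the lower side). Without control replicate 2, 1 member rose and 2 fell, 5.77% of the 52 against a background of 1.6% of all genes (0.896% higher, 0.704% lower). The semaphorins Sema3c and Sema6a fell, and the neuropilin Nrp1 rose. At an unadjusted p under 0.05 there were then 16 members, 8 higher and 8 lower (30.8%, background 13.4%, with 6.57% higher and 6.82% lower).

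These calls rest on few arrays. They were all lost in the fits that additionally left out knockdown replicate 1, control replicate 1 or control replicate 3, where 0 members passed, and at an offset of 1, while at an offset of 64 only Sema6a passed (-0.98, adjusted p = 0.049 with limma). With both arrays numbered 2 left out and the replicate number as a block, 10 members passed, 5 higher and 5 lower (19.2%, background 3.96%, with 2.27% higher and 1.69% lower): Nrp1, Nrp2, Efnb1, Ephb6 and Sema7a rose in that fit, and Sema3c, Sema3d, Sema6a, Efnb2 and Plxnd1 fell. The block takes the replicate numbers as pairs, which the labels do not state. Without the block the same 4 arrays gave 2 members, Sema3c and Sema6a (3.85%, background 0.66%).

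**Figure D1:**
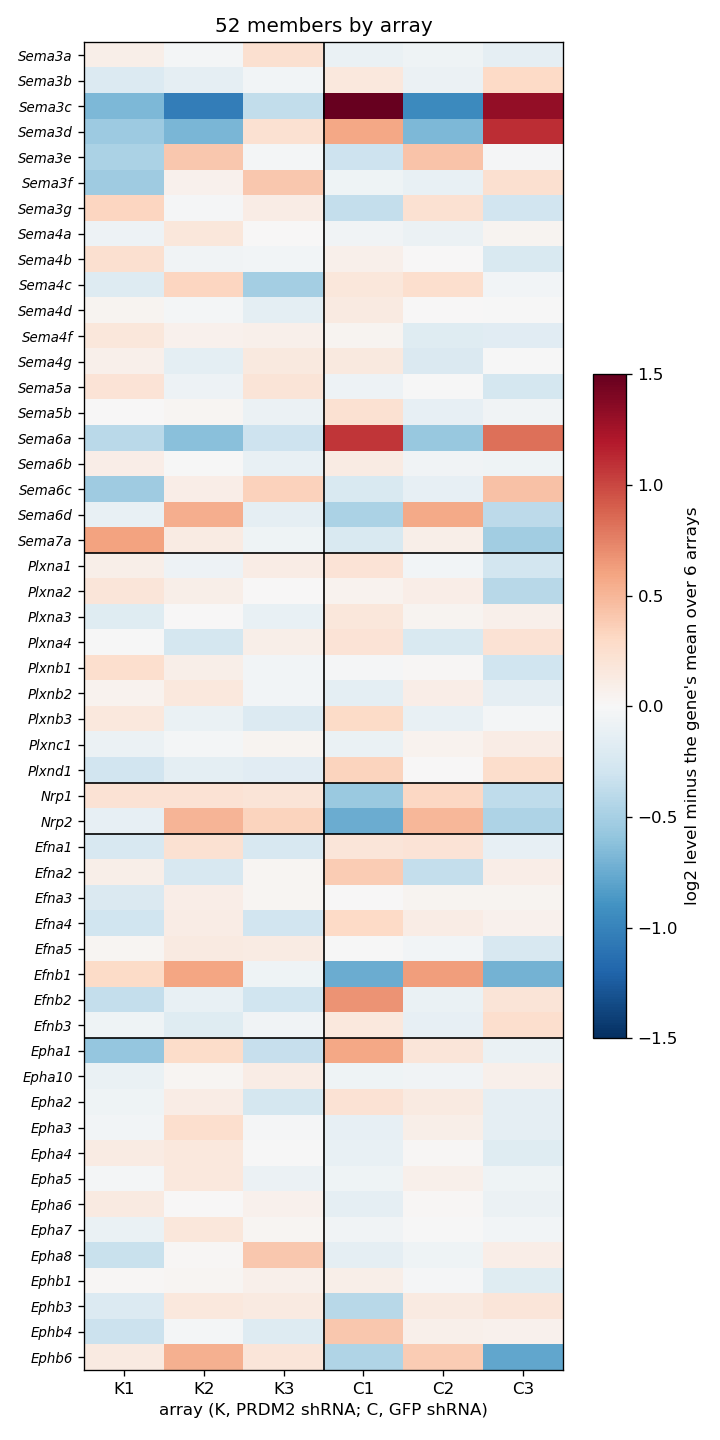
Each row is 1 of the 52 members and each column 1 array (K1 to K3, PRDM2 shRNA; C1 to C3, GFP shRNA), coloured by the log2 level minus the gene's mean over the 6 arrays, with colours saturating at 1.5. The columns K2 and C2 have nearly the same colours, and the 4 darkest cells are those of Sema3c in C1 and C3, Sema3d in C3 and Sema6a in C1.

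Sema3c, a secreted ligand of neuropilins with plexins of the A and D types, showed the largest difference among the members. It read 5.84, 5.49 and 6.14 log2 units in knockdown replicates 1, 2 and 3, against 8.23, 5.56 and 7.84 in control replicates 1, 2 and 3. Control replicates 1 and 3 were high, and control replicate 2 lay among the knockdown arrays, so the groups overlapped. With all 6 arrays the log2 fold change came to -1.39 (SE 0.66, 95% interval -2.97 to 0.20, adjusted p = 1.00 with limma). Without control replicate 2 it was -2.21 (SE 0.21, 95% interval -2.72 to -1.70, adjusted p = 0.013 with limma).

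Sema3d, another secreted semaphorin, was likewise highest in control replicates 1 and 3. Its values were 7.005, 6.86 and 7.78 in knockdown replicates 1 to 3 and 8.13, 6.87 and 8.65 in control replicates 1 to 3. Knockdown replicate 3 stood nearly a log2 unit above the other knockdown arrays but below control replicates 1 and 3. Its log2 fold change was -0.67 (SE 0.47) with all arrays and -1.18 (SE 0.30, adjusted p = 0.15 with limma) without control replicate 2.

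Sema6a, a transmembrane ligand of plexins A2 and A4, read 6.21, 5.99 and 6.30 in the knockdown arrays, against 7.69, 6.04 and 7.44 in the control arrays. Again control replicates 1 and 3 were high and control replicate 2 was within the range of the knockdown arrays. Sema6a had a log2 fold change of -0.89 (SE 0.41, 95% interval -1.87 to 0.092) with all 6 arrays, and -1.40 (SE 0.13, 95% interval -1.72 to -1.08, adjusted p = 0.013 with limma) without control replicate 2.

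Sema7a, which is anchored by a lipid and binds plexin C1 and integrins, went the other way. It read 7.74, 7.25 and 7.06 in the knockdown arrays, against 6.90, 7.22 and 6.61 in the control arrays. The groups overlapped through control replicate 2. Its log2 fold change was 0.44 (SE 0.22) with all arrays and 0.60 (SE 0.21, adjusted p = 0.28 with limma) without it. Sema3e, which binds plexin D1 without a neuropilin, read 6.60, 7.48 and 7.05 in the knockdown arrays, against 6.77, 7.50 and 7.05 in the control arrays. Its arrays agreed by replicate number more than by group, and its log2 fold change was -0.066 (SE 0.27), or 0.13 (SE 0.25) without control replicate 2.

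The remaining 15 semaphorins, 7 of them dim, had log2 fold changes between -0.25 and 0.28 with all arrays and between -0.36 and 0.53 without control replicate 2, with no adjusted p under 0.16. Sema3a, the ligand that collapses growth cones through neuropilin 1, was higher in every knockdown array (6.48, 6.36 and 6.63, against 6.29, 6.32 and 6.25 in the controls), yet only by 0.20 (SE 0.091, unadjusted p = 0.065, adjusted p = 1.00 with limma). Of the 7 class 3 semaphorins, 2 had positive fold changes with all arrays. The 20 semaphorins had a median log2 fold change of -0.017, beside -0.0033 over all genes, and without control replicate 2 it was -0.038, beside -0.012 over all genes.

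Neuropilins, the co-receptors of class 3 semaphorins, were on the opposite side from Sema3c. Nrp1 read 8.03, 8.03 and 8.00 in knockdown replicates 1 to 3, against 7.25, 8.13 and 7.44 in control replicates 1 to 3. The knockdown arrays were nearly equal (SD 0.018), control replicates 1 and 3 were low and control replicate 2 was the highest of the 6. Its log2 fold change was 0.42 (SE 0.22, 95% interval -0.10 to 0.94, adjusted p = 1.00 with limma) and 0.68 (SE 0.095, 95% interval 0.45 to 0.91, adjusted p = 0.032 with limma) without control replicate 2. That call was also lost without knockdown replicate 2 or 3, with the deposited scaling or median centring of the arrays, and at an offset of 64.

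Nrp2 read 6.27, 6.91 and 6.73 in the knockdown arrays, against 5.66, 6.90 and 5.94 in the control arrays. The knockdown arrays were all above control replicates 1 and 3. A log2 fold change of 0.47 (SE 0.33) was found with all arrays, and of 0.84 (SE 0.20, adjusted p = 0.13 with limma) without control replicate 2.

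To show the start regions of the secreted ligands and the co-receptors that lay on opposite sides, the 300 bases from 250 before to 50 after the RefSeq start of Sema3c, Sema3d, Nrp1 and Nrp2 are given from the plus strand of GRCm38.p6, at chr5:17574566-17574865, chr5:12382916-12383215, chr8:128358823-128359122 and chr1:62703067-62703366. Capitals mark E-boxes, CANNTG, the motif that Myod1 and Myog bind.
Sema3c: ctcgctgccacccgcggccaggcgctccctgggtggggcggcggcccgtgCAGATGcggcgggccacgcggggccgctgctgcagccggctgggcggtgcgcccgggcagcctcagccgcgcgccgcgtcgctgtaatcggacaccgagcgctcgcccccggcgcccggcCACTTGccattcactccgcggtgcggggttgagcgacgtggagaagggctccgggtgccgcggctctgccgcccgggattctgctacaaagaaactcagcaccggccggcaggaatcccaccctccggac
Sema3d: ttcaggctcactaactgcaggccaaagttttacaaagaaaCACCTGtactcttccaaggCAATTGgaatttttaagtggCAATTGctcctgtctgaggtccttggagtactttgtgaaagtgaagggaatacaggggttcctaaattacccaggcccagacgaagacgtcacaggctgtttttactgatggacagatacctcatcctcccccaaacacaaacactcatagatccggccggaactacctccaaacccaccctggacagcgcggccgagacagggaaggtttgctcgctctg
Nrp1: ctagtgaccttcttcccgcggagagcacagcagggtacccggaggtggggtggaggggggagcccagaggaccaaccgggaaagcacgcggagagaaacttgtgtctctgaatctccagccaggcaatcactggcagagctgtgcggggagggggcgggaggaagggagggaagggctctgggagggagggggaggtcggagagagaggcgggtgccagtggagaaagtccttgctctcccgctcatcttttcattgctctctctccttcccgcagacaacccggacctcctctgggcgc
Nrp2: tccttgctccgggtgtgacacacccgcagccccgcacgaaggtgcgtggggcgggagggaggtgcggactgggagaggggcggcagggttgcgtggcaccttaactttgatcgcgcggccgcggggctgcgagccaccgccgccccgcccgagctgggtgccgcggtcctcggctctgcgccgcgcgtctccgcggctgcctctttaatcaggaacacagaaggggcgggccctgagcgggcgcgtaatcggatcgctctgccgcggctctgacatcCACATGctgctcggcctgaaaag
The windows of Sema3c, Sema3d and Nrp2 held 2, 3 and 1 E-boxes and that of Nrp1 held 0. None held CAGCTG, an E-box bound by Myod1 among others. The motif reads the same on both strands, and overlapping matches were counted. RefSeq start windows were found for 46 of the 52 members, 60 windows in all. Of the 60 windows 30 held an E-box, against 72.3% of 32851 windows of 27025 genes, and 9 held CAGCTG, against 16.3% of all. Those 27025 genes were not limited to the 18192 measured on the arrays. The members' windows were richer in G and C, with a median of 64% against 52.7%, and had a median of 19.5 against 7.0 CG dinucleotides. The windows of Sema3c and Nrp2 had 42 and 37 CG dinucleotides, those of Sema3d and Nrp1 8 and 14.

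**Figure D2:**
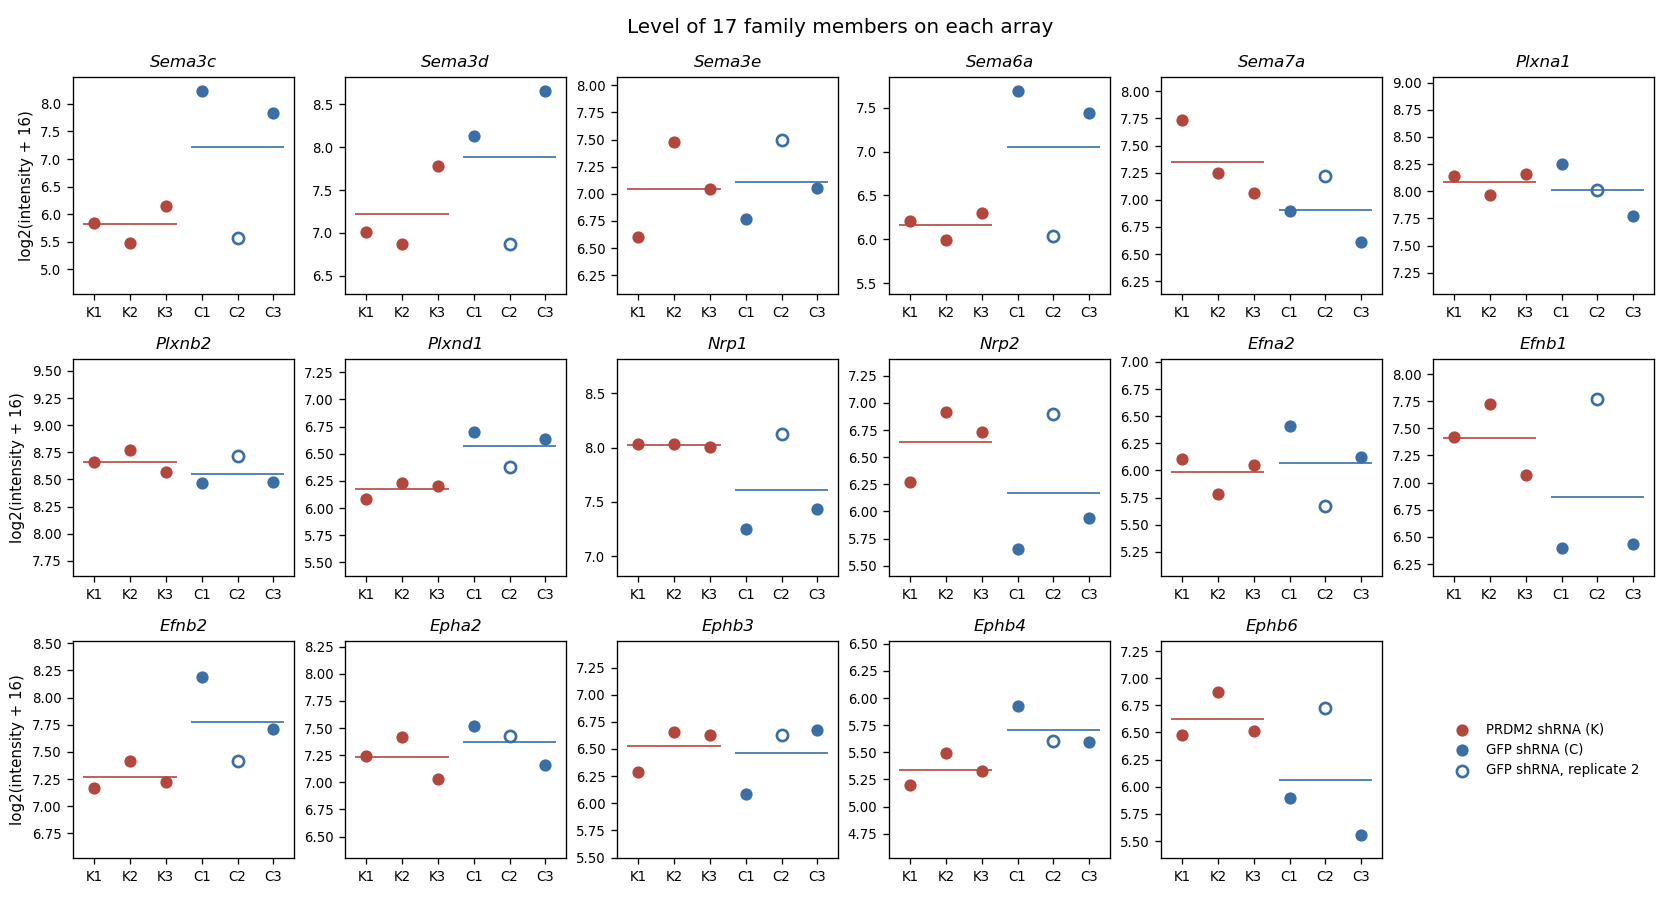
Points are the log2(intensity + 16) of 17 members on each array, PRDM2 shRNA (K) left of GFP shRNA (C), with lines at the group means and control replicate 2 drawn open. Sema3c and Sema6a are high in C1 and C3 only, Nrp1 and Efnb1 are low in C1 and C3 only, and the open point lies close to K2 in every panel.

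Of the 9 plexins, the signalling receptors of semaphorins, none passed the adjusted threshold with all arrays or without control replicate 2. Plxnd1, the receptor of Sema3e and a partner of neuropilins, had the smallest unadjusted p of the members with all arrays. It read 6.08, 6.23 and 6.20 in the knockdown arrays, against 6.70, 6.38 and 6.63 in the control arrays. The groups did not overlap, and control replicate 2 was the lowest control. Plxnd1 had a log2 fold change of -0.40 (SE 0.11, 95% interval -0.65 to -0.14, unadjusted p = 0.0083, adjusted p = 1.00 with limma), and -0.49 (SE 0.093, adjusted p = 0.069) without control replicate 2.

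Plxna1 and Plxnb2, a partner of neuropilins and a receptor of class 4 semaphorins, showed little difference. Plxna1 read 8.14, 7.97 and 8.16 in the knockdown arrays, against 8.26, 8.01 and 7.77 in the control arrays, a log2 fold change of 0.076 (SE 0.14, 95% interval -0.25 to 0.40). Plxnb2 read 8.66, 8.77 and 8.57 in the knockdown arrays, against 8.47, 8.71 and 8.47 in the control arrays, a log2 fold change of 0.11 (SE 0.10, 95% interval -0.13 to 0.36). The other 6 plexins lay between -0.19 and 0.20 with all arrays and between -0.27 and 0.27 without control replicate 2. Plxna3 was lower in every knockdown array, at -0.19 (SE 0.084, adjusted p = 1.00 with limma). Plxnc1, the receptor of Sema7a, was dim on all arrays and stood at -0.042 (SE 0.0885).

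Among ephrins, Efnb1 and Efnb2, both transmembrane ligands of EphB receptors, had opposite signs. Efnb1 read 7.42, 7.73 and 7.07 in the knockdown arrays, against 6.40, 7.77 and 6.43 in the control arrays. Control replicates 1 and 3 were low, while control replicate 2 was the highest of the 6. Efnb1 had a log2 fold change of 0.54 (SE 0.38) with all arrays, and 0.99 (SE 0.19, 95% interval 0.54 to 1.44, adjusted p = 0.069 with limma) without control replicate 2.

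Efnb2, the ligand of EphB4 known from arteries and veins, read 7.16, 7.41 and 7.22 in the knockdown arrays, against 8.19, 7.42 and 7.71 in the control arrays. The groups did not overlap, but the difference between the arrays numbered 2 was only -0.0054. Efnb2 had a log2 fold change of -0.51 (SE 0.20, unadjusted p = 0.038, adjusted p = 1.00 with limma) and -0.69 (SE 0.16, adjusted p = 0.12) without control replicate 2. Whether Efnb1 and Efnb2 differed from each other in their response was not tested.

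Efna2, of the lipid-anchored type, read 6.11, 5.78 and 6.05 in the knockdown arrays, against 6.41, 5.67 and 6.12 in the control arrays, a log2 fold change of -0.085 (SE 0.20). The other 5 ephrins, 3 of them dim, lay between -0.32 and 0.19 with all arrays. Of the 8 ephrins 2 had positive fold changes, Efnb1 and Efna5, and the median was -0.13, beside -0.0033 over all genes.

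Among Eph receptors, Ephb6, whose kinase domain is inactive, was higher in the knockdown arrays except against control replicate 2. It read 6.48, 6.88 and 6.52 in the knockdown arrays, against 5.89, 6.72 and 5.56 in the control arrays. The log2 fold change was 0.57 (SE 0.29) with all arrays and 0.90 (SE 0.16, 95% interval 0.50 to 1.29, adjusted p = 0.063 with limma) without control replicate 2. Its groups overlapped only through control replicate 2.

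Ephb4, the receptor of Efnb2, read 5.20, 5.50 and 5.33 in the knockdown arrays, against 5.92, 5.60 and 5.59 in the control arrays. The groups did not overlap. Like its ligand it was on the lower side, at -0.37 (SE 0.13, unadjusted p = 0.025, adjusted p = 1.00 with limma), and at -0.42 (SE 0.14, adjusted p = 0.26) without control replicate 2.

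Epha2 and Ephb3 did not separate the groups. Epha2 read 7.24, 7.41 and 7.03 in the knockdown arrays, against 7.52, 7.43 and 7.16 in the control arrays (log2 fold change -0.14, SE 0.14). Ephb3 read 6.29, 6.65 and 6.63 in the knockdown arrays, against 6.08, 6.62 and 6.68 in the control arrays (log2 fold change 0.064, SE 0.19). The other 9 Eph receptors, 7 of them dim, lay between -0.44 and 0.19 with all arrays and had no adjusted p under 0.34 without control replicate 2. The 13 receptors, 7 of them dim, had a median log2 fold change of 0.064, beside -0.0033 over all genes. Positive values were seen for 10 of the 13, and for 8885 of 18192 genes.

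**Figure D3:**
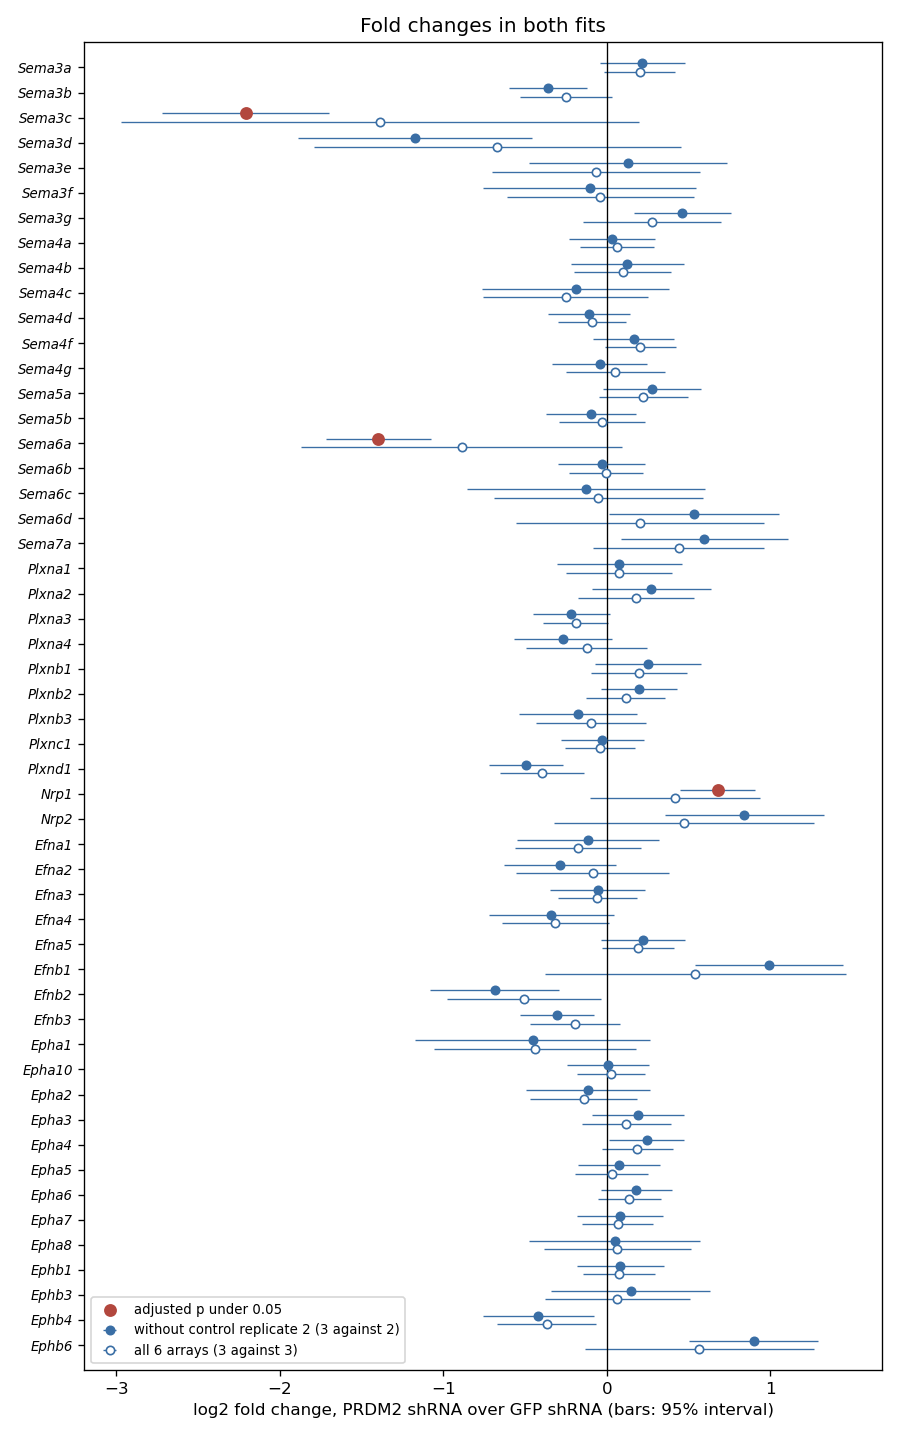
Log2 fold change of each member, PRDM2 shRNA over GFP shRNA, with 95% intervals from limma, without control replicate 2 (filled) and with all 6 arrays (open). Sema3c, Sema6a and Nrp1 are marked as past the threshold without control replicate 2, at -2.21, -1.40 and 0.68, and their open points have intervals that include 0.

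Across the families, the groups did not overlap for 7 of 52 members with all 6 arrays (13.5%, background 7.17%, with 2.93% higher and 4.24% lower). These were Sema3a, Sema4f and Efna5 on the higher side and Plxna3, Plxnd1, Efnb2 and Ephb4 on the lower side. Without control replicate 2 the count was 26 (50%, background 30.2%). A log2 fold change of size 0.5 or more was seen for 10 members without control replicate 2 (19.2%, background 6.02%), 6 higher and 4 lower (background 3.38% and 2.64%). In all 10, control replicate 2 was closer to the mean of the knockdown arrays than to that of the other controls. The same was true of 96.3% of the 1096 genes of that size in the whole table. Leaving out another array in place of control replicate 2 made several of these log2 fold changes more than 1.5 times smaller than with all 6 arrays. Without control replicate 1 they were -0.88 for Sema3c, -0.57 for Sema6a, 0.24 for Nrp1, 0.22 for Nrp2, 0.31 for Efnb1 and -0.30 for Efnb2. Without control replicate 3 they were -0.29 for Sema3d, 0.29 for Sema7a, 0.33 for Efnb1 and 0.32 for Ephb6, and without knockdown replicate 1 that of Sema7a was 0.25. The signs of these 9 members held in each fit that left out 1 array. Sema6d, the other member of size 0.5 or more without control replicate 2, was dim. It read 5.04, 5.70 and 5.01 in the knockdown arrays, against 4.68, 5.71 and 4.76 in the control arrays. Its log2 fold change was 0.20 (SE 0.32) with all 6 arrays and 0.53 (SE 0.22) without control replicate 2. Fits of Sema6d that left out another array are not given.

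Differences were also taken within each replicate number. By the brightest probe set of each gene, the largest difference of any member between the arrays numbered 2 was 0.26. The median absolute difference was 0.067, against medians of 0.25 and 0.25 for the arrays numbered 1 and 3. A further probe set of Sema6a read 6.80 in knockdown replicate 2 and 6.18 in control replicate 2. For Sema3c the knockdown minus control differences were -2.39, -0.079 and -1.70 for numbers 1, 2 and 3, and for Nrp1 they were 0.78, -0.093 and 0.57. Numbers 1 and 3 pointed the same way for 42 of the 52 members, or 80.8%, and for 62.3% of all genes. With the replicate number as a block and all 6 arrays, no member passed, and 15 had an unadjusted p under 0.05 (28.8%, background 9.01%).

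Other probe sets of the same genes were read separately. Among the 10 members of size 0.5 or more without control replicate 2, all 19 further probe sets had the sign of the brightest, while Ephb6 had no further probe set. Among the other 42 members 37 of 52 further probe sets did. The 3 further probe sets of Sema6d had means under the median probe set of 4.76, and the lowest fold change was 0.0040. Sema3c had a further probe set at -0.82 (SE 0.14). Sema6a had others at -0.55 (SE 0.26, unadjusted p = 0.077 with limma) and -0.80 (SE 0.17), neither past the threshold. In the former the groups overlapped even without control replicate 2, with 6.80 in knockdown replicate 2 and 6.65 in control replicate 3. The 4 probe sets of Nrp1 ranged between 0.31 and 0.79, with 2 past the threshold over all probe sets. For Sema3c and Sema6a the further probe sets therefore gave smaller differences on the same scale.

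**Figure D4:**
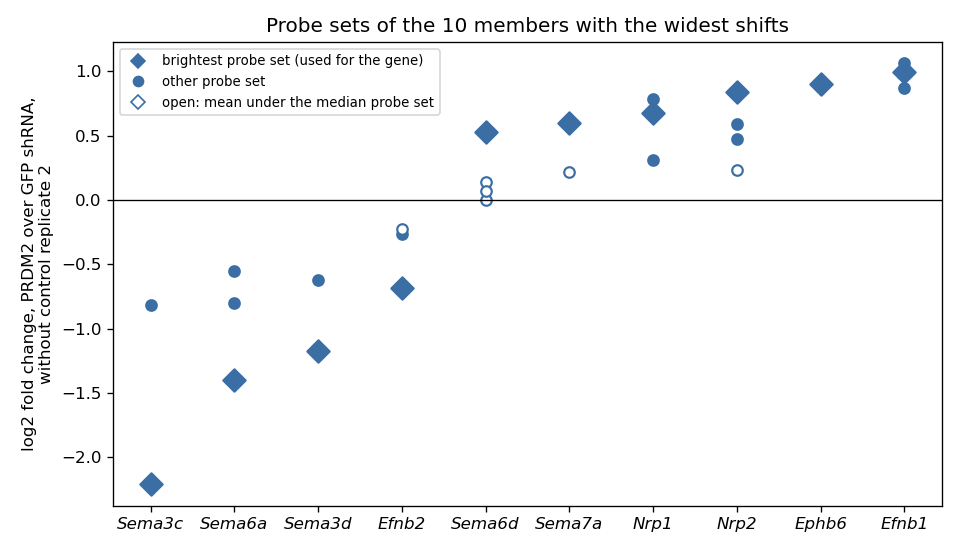
Log2 fold change without control replicate 2 for each probe set of the 10 members of size 0.5 or more (diamond, brightest probe set; open, mean under the median probe set of 4.76). All probe sets of a gene lie on the same side of 0, and in Sema3c they are at -2.21 and -0.82.

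Proteins that pass on these signals were listed separately. Of 29 measured partners of semaphorins and plexins, none passed with all 6 arrays. Without control replicate 2, 1 rose and 0 fell (background 0.896% higher, 0.704% lower). The gene that rose was Arhgef12, whose product binds B-type plexins, with a log2 fold change of 0.53 (SE 0.084, adjusted p = 0.043 with limma). It read 7.79, 7.83 and 7.79 in the knockdown arrays, against 7.25, 7.88 and 7.29 in the control arrays. The list had a median of 0.060 without control replicate 2, beside -0.012 over all genes.

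Of 29 partners of ephrins and Eph receptors, none passed with all 6 arrays. Without control replicate 2, 0 rose and 2 fell (background 0.896% higher, 0.704% lower). Tiam1, a Rac exchange factor recruited by EphA and ephrin-B signalling, read 5.29, 5.16 and 4.94 in the knockdown arrays, against 6.59, 5.28 and 6.21 in the control arrays, and fell by 1.27 (SE 0.16, adjusted p = 0.024 with limma). Src, the kinase downstream of ephrin-B, read 5.51, 5.51 and 5.70 in the knockdown arrays, against 6.86, 5.73 and 6.55 in the control arrays, and fell by 1.13 (SE 0.13, adjusted p = 0.020 with limma). The list had a median of -0.0093 without control replicate 2.

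Markers of other cell types were read beside the members. Without control replicate 2, 1 of 10 neuron and neurite markers rose and 2 fell, and 1 of 8 fibroblast markers rose and 1 fell. The background was 0.896% higher and 0.704% lower. Means of the 10 neuron and neurite markers were 4.87, 4.96 and 4.95 in the knockdown arrays, against 5.89, 4.93 and 5.60 in the control arrays, and 7 of the 10 were dim. Their median log2 fold change without control replicate 2 was only -0.063, with 4 positive, beside -0.012 over all genes. Without control replicate 2, Nefl fell by 4.72 (SE 0.19), Tubb3 fell by 3.19 (SE 0.22) and Stmn2 rose by 1.62 (SE 0.14). Synaptic and neuronal markers Snap25 and Elavl4 had means of 4.15 and 4.22, close to the floor of 4. Among 8 fibroblast markers, whose means were 6.06, 6.37 and 6.43 in the knockdown arrays and 6.47, 6.37 and 6.66 in the control arrays, Dcn fell by 2.74 (SE 0.19) and Pdgfrb rose by 0.85 (SE 0.14). Of 8 endothelial markers 7 were dim, with list means of 4.34 to 4.47 in the knockdown arrays and 4.30 to 4.49 in the control arrays. Their log2 fold changes without control replicate 2 lay between -0.61 and 0.12, with 0 past the threshold. Schwann cell markers had 5 measured members, 4 of them dim, and 0 past the threshold. The part of these genes in the members' differences was not tested. In whole cultures, fewer cells of a type and less RNA per cell cannot be told apart.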

How the data were processed

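Gene expression was measured on 6 arrays, 3 with PRDM2 shRNA and 3 with GFP shRNA, grouped by their titles. The authors deposited 1 linear intensity per probe set and array. GCOS and PLIER are named, with no role, in the submitters' processing notes, while the sources used here do not give the scaling between arrays. From 45101 probe sets, 64 controls and 4 holding their gene's Entrez number were left out, leaving 45033. Of these, 34941 named 1 gene by the platform annotation. Upper quartiles differed by 0.15 log2 units, so values were quantile-normalized as log2(intensity + 16), and the brightest probe set stood for a gene. A fold change on this scale understates that of dim genes.

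The comparison used limma 3.58.1 with R 4.3.3 (two-sided, Benjamini-Hochberg, threshold 0.05), checked on simulated data. The simulated arrays were independent and no control array was set apart, so that check does not cover the choice to leave out control replicate 2. Standard errors are moderated. The families that define the members, the lists and the comparison without control replicate 2 were chosen with earlier results of these data known. Values on every array are given for members past the threshold, with unadjusted p under 0.05 in all arrays, or among the 3 brightest of a family (plexins and neuropilins together), and for both neuropilins. Others named individually were chosen after their values were seen. Partner genes with values on every array are those past the threshold. Entrez numbers matched all 52 members to RefSeq (GRCm38.p6), which also gave the start windows.

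Deviations of the knockdown and control array from their group means correlated at 0.34, 0.59 and 0.66 for replicate numbers 1, 2 and 3. These were over 18192 genes, each over 0.1, so the numbers were read as pairs. Deviations cancel out within a group, so closeness of the arrays numbered 2 could make all of these positive. Correlations between arrays of mismatched numbers were not computed. Over all genes, knockdown replicate 1 was nearer to control replicate 3 (median absolute log2 difference 0.141) than to control replicate 1 (0.148). Knockdown replicates 2 and 3 were nearest to the control of their own number (0.064 and 0.111). This pairing comes from the data and not from the labels. Alternatives were other scalings, offsets of 1 and 64, no dim genes, other uses of probe sets, trend and robust eBayes, the block, and leaving out arrays. Precision is limited by having 3 arrays per group.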

Additional observations from a re-analysis of the deposited data

How the results depend on the processing

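With all 6 arrays, 0 members and 0 of 18192 genes were called under each scaling, offset, filter and probe set choice, with trend and robust settings and with the replicate block (0 members; for named members, adjusted p from 0.55 to 0.85 with the block, at least 0.97 without dim genes, and 1.00 in the other settings). Leaving out 1 array gave 0 to 3 members and 0 to 291 genes, and control replicate 2 was the only array whose omission gave any. Signs turned for 4 named members near 0. Leaving out 1 array, Sema3e ranged from -0.28 to 0.16 (0.13 without control replicate 2), Efna2 from -0.28 to 0.087 (0.014 without knockdown replicate 2), Ephb3 from -0.13 to 0.18 (-0.00047 without knockdown replicate 2) and Plxna1 from -0.045 to 0.20, lowest without control replicate 3. Without control replicate 2, 291 genes and 3 members were called. The counts became 155 genes with the deposited scaling, 136 with median centring, 50 genes and 0 members at an offset of 1, and 56 genes and 1 member at an offset of 64. They became 344 genes and 5 members without dim genes, where fewer genes were tested, and 176 genes with every probe set tested separately. Trend and robust settings gave 441 genes and 5 members. The replicate block, also without knockdown replicate 2, gave 721 genes and 10 members. Leaving out a further array gave 6 to 191 genes and 0 to 3 members, with 0 members without knockdown replicate 1, control replicate 1 or control replicate 3. Over the 14 alternatives Sema6a was called in 10, Sema3c in 9, Nrp1 in 5, Efnb1 in 4 and Ephb6 in 3. Beyond the arrays left out, the cause of these changes was not tested. Dim members lie near the floor of the scale, where the offset limits any difference.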

Other observations

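Guidance cues of other families were measured too. Of 22 slit, netrin and related genes, 11 of them dim, none passed with all 6 arrays. Without control replicate 2, 1 rose and 0 fell (background 0.896% higher, 0.704% lower). Unc5c, a netrin receptor, read 5.87, 6.23 and 5.91 in the knockdown arrays, against 4.98, 6.27 and 5.08 in the control arrays, and rose by 0.98 (SE 0.13, adjusted p = 0.031 with limma) in that comparison. Slit2, a secreted ligand of Robo receptors, read 6.69, 7.30 and 6.67 in the knockdown arrays, against 5.53, 7.40 and 5.90 in the control arrays, and stood at 1.18 (SE 0.22, adjusted p = 0.069). Unc5b, another netrin receptor, stood at 0.75 (SE 0.17, adjusted p = 0.11). The list's median was 0.0065, beside -0.012 over all genes, and as for Sema3c, Sema3d and Sema6a, control replicate 2 lay nearer to the knockdown arrays than to the other controls for Unc5c and Slit2.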
